A study of Mus musculus with 768 samples.

Results

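Fap, Lrrc15, Pdpn, Thy1 and Cd248 encode cell-surface proteins by which cancer-associated fibroblasts (CAFs) are stained, sorted or targeted. They were taken by symbol from the 24490 endogenous genes of the expression tables, and all 5 were present. The levels were described over the 727 of 768 wells that held at least 10000 reads on endogenous genes.

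Each well held 1 sorted cell from 1 of 2 mammary tumors of mice aged 14 weeks, strain FVB/N-Tg(MMTVPyVT)634Mul/J. Whether both tumors came from the same mouse is not given in the sources used here. In this strain the MMTV promoter, which is active in mammary epithelium, drives the polyoma middle T oncogene. The cells had been sorted as alive and negative for EpCAM, NG2, CD31 and CD45, which removes epithelial cells, NG2-bearing pericytes, endothelial cells and leukocytes, and all wells belong to 1 group with no treatment and no normal tissue for comparison. Tumor 1 gave 373 of the wells used (10281 to 838772 endogenous reads, median 219264) and tumor 2 gave 354 (10476 to 1190516 reads, median 198180). The tumor is the replicate (n = 2 tumors), wells are not, and each tumor filled 1 plate, so that tumor and plate cannot be told apart.

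Of the genes behind the sort, Pecam1 (CD31) was read in 2 of the 727 wells and Ptprc (CD45) in 1. Epcam was read in 56, among them 24 of 462 wells of the vascular class, 18 of 135 of the matrix class and 8 of 39 of the developmental class described below, and a read of any of these 3 genes was found in 57. Cspg4, the gene of NG2, was read in 399 of 462 wells of the vascular class and 107 of 135 of the matrix class. At least 1 of 6 epithelial genes was read in 180 wells, at least 1 of 4 lymphatic endothelial genes in 22 and at least 1 of 5 immune genes in 37. Pdpn is also a marker of lymphatic endothelium, of which Prox1 was read in 12 wells and Lyve1 in 2.

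As background, fibroblast activation protein (Fap) is a membrane-bound serine protease of the dipeptidyl peptidase family, found on reactive stroma. Lrrc15 is a leucine-rich repeat membrane protein known from CAFs of desmoplastic tumors. Podoplanin (Pdpn) is a mucin-type glycoprotein whose short cytoplasmic tail binds ezrin and moesin and whose outer part binds the platelet receptor encoded by Clec1b. Thy1 (CD90) is a glycosylphosphatidylinositol-anchored protein that binds integrins, and Cd248 (endosialin) is a C-type lectin-like protein of pericytes and stromal fibroblasts that binds collagen and fibronectin.

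On GRCm38, the assembly behind mm10, RefSeq places Fap on chr2:62500936-62575509, Lrrc15 on chr16:30269302-30283254 and Pdpn on chr4:143267409-143299564, all on the minus strand. Thy1 lies on chr9:44043384-44048579 and Cd248 on chr19:5068078-5070640, both on the plus strand. No other RefSeq gene overlapped any of them (0 overlapping genes each). In GENCODE the longest models have 26 exons for Fap, 2 for Lrrc15, 6 for Pdpn, 4 for Thy1 and 1 for Cd248.

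Wells were sorted into classes on a t-SNE map by density (DBSCAN, with a neighbour distance of 2.0 rather than the study's), with the 5 genes left out of the genes that made the map, and each class was named from marker genes. The vascular class (vCAF-like, 462 wells, marked by Rgs5, Kcnj8 and Notch3) held 247 wells of tumor 1 and 215 of tumor 2. The matrix class (mCAF-like, 135 wells, marked by Dcn, Lum and Fbln1) held 73 and 62, the cycling class (cCAF-like, 42 wells, marked by Top2a and Mki67) 21 and 21, and the developmental class (dCAF-like, 39 wells, marked by Scrg1, Sox9 and Sox10) 10 and 29. The genes in brackets are examples from the marker lists. Of the 8 genes of the dCAF-like list, 6 were read in most dCAF-like wells, while Cldn3 was read in 15 of 39 and Matn2 in 13 of 39, the latter against 120 of 135 mCAF-like wells. A further 49 wells, 22 and 27, stayed without a name. The classes came from the same wells as the tests below, so p-values between classes are no independent evidence for the classes.

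The 5 genes fell into 3 patterns. Lrrc15 and Pdpn were high in mCAF-like wells and near 0 in vCAF-like wells, Fap was read in most wells of both with summed levels that differed in opposite directions in the 2 tumors, and Thy1 and Cd248 were read in nearly all wells of both classes with summed levels above the mCAF-like ones in the vCAF-like class of both tumors, differences that missed the threshold of edgeR's test (adjusted p = 0.50 and 0.28). Pdpn was also read in dCAF-like wells, in which Thy1 was nearly absent and Cd248 was low.

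The stretches of 250 bases before the start sites of Lrrc15 and Pdpn are shown because these are the members whose reads gathered in the mCAF-like wells. They are from RefSeq (GRCm38.p6), 5′ to 3′ on the gene's strand, at chr16:30283255-30283504 (minus strand) and chr4:143299565-143299814 (minus strand). Capitals mark a match to TGANTCA, the letters of an AP-1 site.
Lrrc15: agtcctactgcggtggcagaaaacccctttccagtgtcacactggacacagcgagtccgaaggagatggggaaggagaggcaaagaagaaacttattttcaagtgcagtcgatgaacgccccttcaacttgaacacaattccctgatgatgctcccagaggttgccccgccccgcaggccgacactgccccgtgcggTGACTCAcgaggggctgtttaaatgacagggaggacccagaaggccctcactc
Pdpn: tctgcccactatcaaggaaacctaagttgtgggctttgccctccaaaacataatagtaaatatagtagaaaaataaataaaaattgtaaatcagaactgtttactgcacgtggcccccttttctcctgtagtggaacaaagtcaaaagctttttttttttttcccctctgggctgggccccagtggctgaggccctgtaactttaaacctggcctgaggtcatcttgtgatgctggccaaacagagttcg

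The Lrrc15 stretch had 1 match to TGANTCA, which begins 53 bases before the start site, and the Pdpn stretch had 0. This motif was found on either strand in 6.75% of 32851 such stretches. The GC box GGGCGG was found once for Lrrc15, 84 bases before the start site, and not for Pdpn (32.7% of all stretches). CAGAC and GTCTAGAC (SMAD elements), TATAAA (the TATA box) and GGAATG (a TEAD site) were found in neither stretch, against 42.2%, 0.167%, 12.4% and 12.6% of all stretches. GC content was 56.4% for Lrrc15 and 43.2% for Pdpn. The motifs were picked with the sequences in view, and the expression data do not bear on whether any of them is used. Fap, Thy1 and Cd248 have no entry in the promoter table used.

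Reads were first counted well by well. Among the 135 mCAF-like wells, Lrrc15 had a median of 648 reads in tumor 1 and 618 in tumor 2, with up to 2959 and 3071 reads. At least 5 reads were found in 71 of 73 and 59 of 62 mCAF-like wells (96.2% ± 1.48, SD over n = 2 tumors). Among vCAF-like wells the median was 0 in both tumors and at least 5 reads were found in 5 of 247 and 15 of 215 wells (4.5% ± 3.5). Few mCAF-like wells held an intermediate number, since 130 had over 20 reads of Lrrc15, 4 had 0 and 1 had a single read.

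The share of wells with any read of Lrrc15 gave another picture. It was 96.9% ± 2.45 in mCAF-like, 30.7% ± 0.666 in vCAF-like, 35.7% ± 10.1 in cCAF-like and 42.4% ± 3.41 in dCAF-like wells (SD, n = 2 tumors). Of the 142 vCAF-like wells with a read, 108 had exactly 1, as had 12 of 15 cCAF-like and 13 of 17 dCAF-like wells. Over all wells 142 of the 324 with a Lrrc15 read (43.8%) held a single one, 79 in tumor 1 and 63 in tumor 2. The median of this share over 295 genes with a total within 2-fold of that of Lrrc15 was 3.30%, and 1 of them, the matrix gene Cilp (47.1%, named after its value was seen), lay above Lrrc15.

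For the 10 marker genes of the mCAF-like class, single reads made up 11.2% (Vcan) to 39.7% (Lum) of the wells with a read. For the other members it was 5.62% for Fap, 14.8% for Pdpn, 2.43% for Thy1 and 3.12% for Cd248. The origin of the single reads was not tested. A single read was therefore not taken as expression, and the shares below use at least 5 reads per well unless stated.

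**Figure D1:**
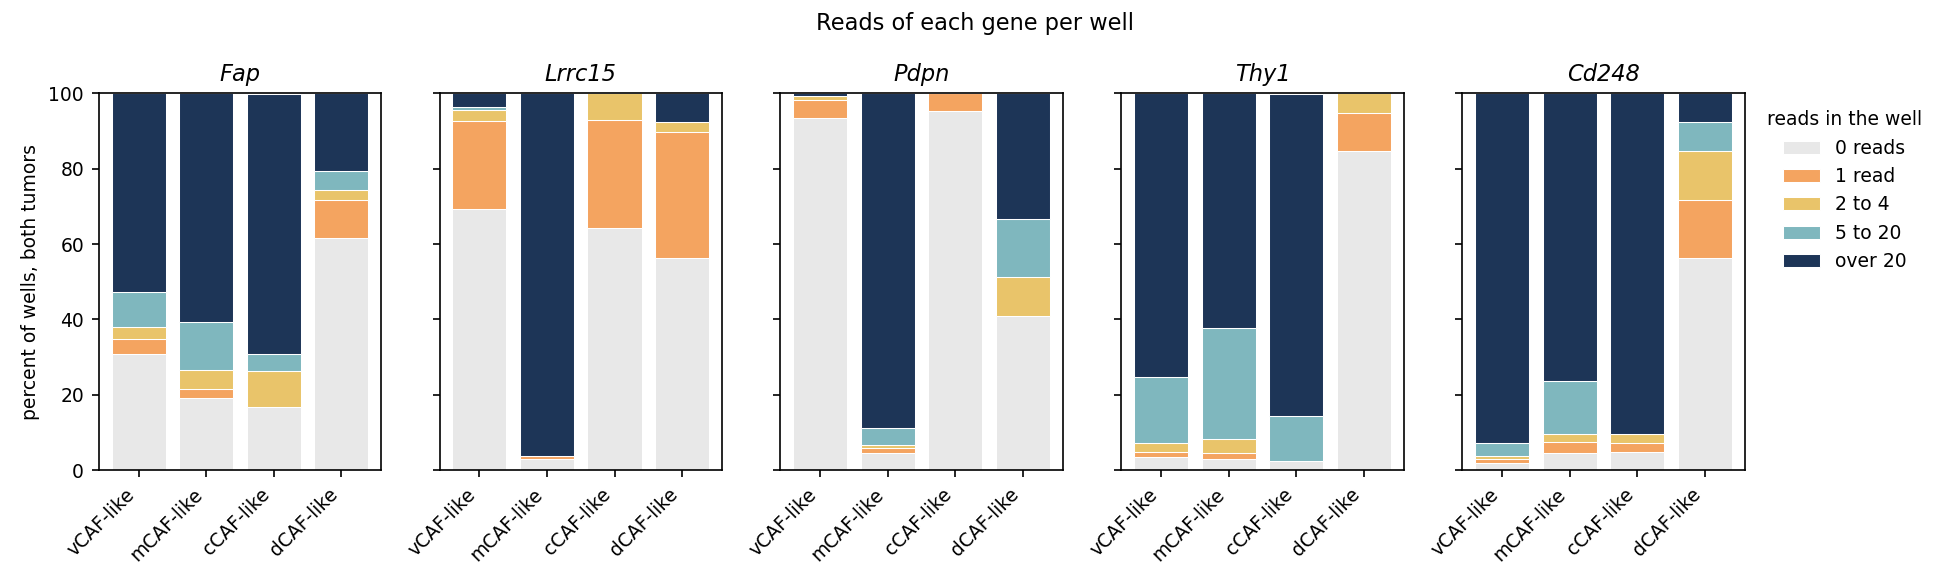
Percent of wells (y axis, both tumors together) with 0, 1, 2 to 4, 5 to 20 or over 20 reads of each gene (colours) in each class (x axis). The orange band of Lrrc15 is the single reads, found in 108 of 462 vCAF-like wells against 1 of 135 mCAF-like wells.

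Pdpn had a median of 112 reads per mCAF-like well in tumor 1 and 63 in tumor 2, and a median of 0 in vCAF-like wells of both. It reached 5 reads in 68 of 73 and 58 of 62 mCAF-like wells (93.3% ± 0.281) but in 2 of 247 and 1 of 215 vCAF-like wells (0.637% ± 0.244). No cCAF-like well reached 5 reads of Pdpn or of Lrrc15 (0 of 21 wells per tumor, where 3 wells would be 14.3% and the exact 95% upper bound is 16.1%, both for counting error only). In dCAF-like wells Pdpn reached 5 reads in 6 of 10 and 13 of 29 (52.4% ± 10.7). The dCAF-like share thus lay between the vCAF-like and mCAF-like shares in both tumors. Its exact 95% binomial intervals were 26.2 to 87.8% in tumor 1 and 26.4 to 64.3% in tumor 2. These are also for counting error only, as wells are not replicates.

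Fap was found in most wells of the vCAF-like, mCAF-like and cCAF-like classes. At least 5 reads were present in 160 of 247 and 126 of 215 vCAF-like wells (61.7% ± 4.36), in 55 of 73 and 44 of 62 mCAF-like wells (73.2% ± 3.09) and in 18 of 21 and 13 of 21 cCAF-like wells (73.8% ± 16.8). The mCAF-like share was above the vCAF-like share in both tumors, by more than the spread between tumors. When each well was thinned to 50000 reads, the shares with at least 5 reads were 57.4% ± 1.33 in mCAF-like and 55.2% ± 4.62 in vCAF-like wells, a difference within the spread between tumors. The shares with any read in thinned wells were 74.4% ± 4.82 and 64.6% ± 2.4, a difference larger than that spread, so that the comparison depends on the read number asked for. In vCAF-like wells with a Fap read the median depth was 219863.5 and 206947 reads in tumors 1 and 2, and in those without it 167102 and 169746. In mCAF-like wells it was 300293 and 250389.5 with a Fap read and 299155.5 and 223320.5 without. Fap was lowest in dCAF-like wells, in 1 of 10 and 9 of 29 (20.5% ± 14.9).

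Thy1 reached 5 reads in 228 of 247 and 201 of 215 vCAF-like wells (92.9% ± 0.835), in 69 of 73 and 55 of 62 mCAF-like wells (91.6% ± 4.11) and in 21 of 21 and 20 of 21 cCAF-like wells. The same count in dCAF-like wells was 0 of 10 and 0 of 29, and no dCAF-like well had more than 2 reads. In thinned wells the shares were 80.1% ± 7.94 for vCAF-like and 58.9% ± 12.5 for mCAF-like wells.

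Cd248 reached 5 reads in 240 of 247 and 205 of 215 vCAF-like wells (96.3% ± 1.28) and in 67 of 73 and 55 of 62 mCAF-like wells (90.2% ± 2.17). Its median was 174 and 192 reads per vCAF-like well and 62 and 53 per mCAF-like well. dCAF-like wells reached 5 reads in 1 of 10 and 5 of 29. In thinned wells the shares were 95.6% ± 0.457 for vCAF-like and 78.1% ± 5.48 for mCAF-like wells, a difference larger than the spread between tumors. Cd248 and Thy1 were thus found in most vascular and most matrix wells, with a lower share of matrix wells after thinning, and in few dCAF-like wells.

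**Figure D2:**
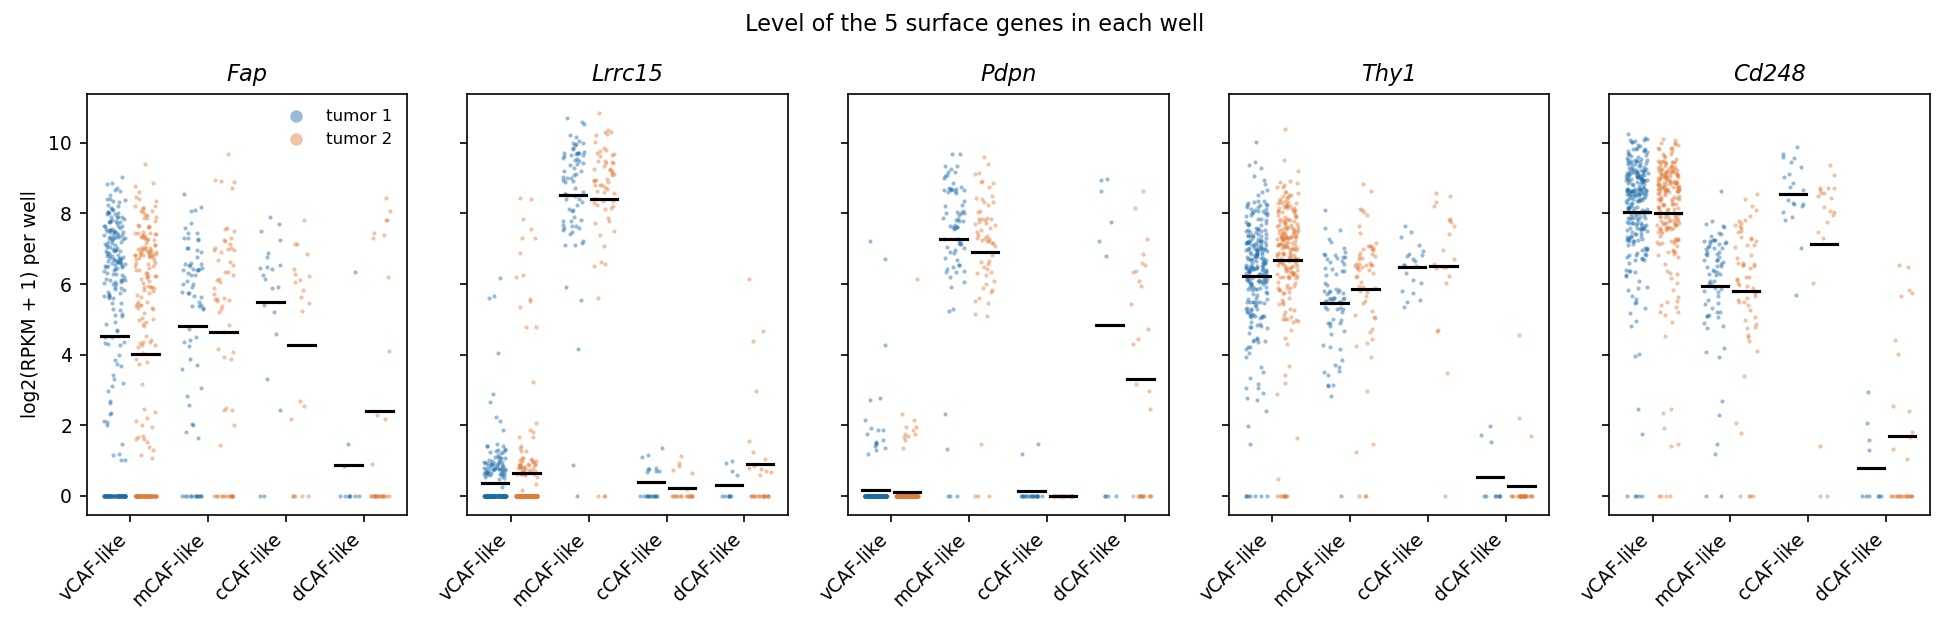
log2(RPKM + 1) of each gene (y axis) in each well (points) by class (x axis) and tumor (colours), with black bars for the mean over wells. Lrrc15 and Pdpn sit high in mCAF-like wells, with means of 8.51 and 8.40 for Lrrc15 and 7.28 and 6.90 for Pdpn, and at or near 0 in vCAF-like wells.

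RPKM divides the reads by the length of the gene, and so allows the genes to be put in order within a class. Mean RPKM in vCAF-like wells was 383 ± 4.30 for Cd248, 142 ± 27.6 for Thy1, 84.2 ± 11.7 for Fap, 4.99 ± 5.54 for Lrrc15 and 0.856 ± 0.561 for Pdpn (SD, n = 2 tumors). Of the neighbours in that order, Lrrc15 and Pdpn did not differ beyond their spread. In mCAF-like wells the order was Lrrc15 (540 ± 3.87), Pdpn (229 ± 39.9), Cd248 (95.7 ± 6.10), Fap (84.0 ± 16) and Thy1 (79.2 ± 25.9), the last 3 within their spread of each other. The order in cCAF-like wells, Cd248 (368 ± 116), Thy1 (124 ± 37.5) and Fap (69.4 ± 18.4), was that of the vCAF-like wells. In dCAF-like wells Pdpn came first (120 ± 94.1), followed by Fap (32.5 ± 34.4), Cd248 (7.40 ± 8.59), Lrrc15 (2.38 ± 2.94) and Thy1 (0.848 ± 0.187). Each neighbouring pair in this order differed by less than the larger of their SDs.

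To compare the classes with the tumor as the replicate, reads were summed per tumor and class and tested over 11710 genes with edgeR's quasi-likelihood test and Benjamini-Hochberg adjustment at 0.05. The question was which of the surface genes separate vascular from matrix wells. At this threshold 2.59% of the genes were higher and 2.98% lower in vCAF-like than in mCAF-like wells, and of the members 0 were higher and 2 were lower. At an unadjusted p under 0.05, 1 member, Cd248, was higher, and DESeq2 called 0 higher and 2 lower.

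Pdpn stood at 2.82 and 1.29 CPM (reads scaled by library size) in the vCAF-like wells of tumors 1 and 2 and at 587 and 480 in the mCAF-like wells. The groups lay far apart in both tumors, and the log2 fold change was -8.01 (SE 0.929, adjusted p = 0.0053). It was -5.15 at a DBSCAN distance of 2.5, where 578 wells are vCAF-like and no dCAF-like or cCAF-like class is named, and -10.64 with classes from Leiden clustering of a neighbour graph, with the call kept in both. Leiden clustering left 88 of the 462 vCAF-like wells without a name and put 28 into the cCAF-like class. Lrrc15 stood at 6.50 and 58.6 CPM against 3597 and 3657. Both mCAF-like values lay above both vCAF-like values, with a log2 fold change of -6.80 (SE 1.48, adjusted p = 0.047). With ERCC totals as the library size, a scale on which the median gene stood at 0.31, the log2 fold change was -6.50 and missed the threshold (adjusted p = 0.053). It was -8.91 with Leiden classes. The vCAF-like level differed between the tumors, and the fold change was -9.10 on tumor 1 alone and -5.96 on tumor 2 alone, values with no test.

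The vCAF-like reads of Lrrc15 came from few wells. In tumor 2, 15 wells with 5 to 646 reads held 2634 of the 2689 reads, and in tumor 1, 5 wells with 5 to 124 reads held 258 of 341. In the 15 wells a median of 60% of the mCAF-like markers was read, against 20% in the other vCAF-like wells of that tumor. In the 5 wells of tumor 1 the median was 30%, as in the rest of the class. None of the 20 wells reached 5 reads of Pdpn. Whether these wells held more than 1 cell or a mixed state was not tested.

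Cd248 stood at 1165 and 1093 CPM in vCAF-like and at 311 and 353 in mCAF-like wells. The values did not overlap, and the log2 fold change was 1.77 (SE 0.716), but the gene missed the threshold in the fit over all 8 libraries (adjusted p = 0.28). It passed with the 4 libraries of these classes alone (SE 0.158, adjusted p = 0.0019) and in thinned wells (adjusted p = 0.038). Over all settings run with a test the fold change stayed between 1.60 and 2.06.

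Thy1 stood at 215 and 282 CPM in vCAF-like and at 119 and 208 in mCAF-like wells. Both mCAF-like values lay below both vCAF-like values, the nearest being 208 and 215. The log2 fold change was 0.61 (SE 0.338, adjusted p = 0.50). Fap stood at 290 and 237 CPM against 247 and 261, so that the vCAF-like values lay on either side of the mCAF-like ones. Its log2 fold change was 0.05 (SE 0.869, adjusted p = 0.997) in the fit over all 8 libraries, which takes the spread from all classes. With the 4 libraries of these classes alone it was 0.06 (SE 0.172, adjusted p = 0.86 by edgeR). The sign turned when wells were thinned (-0.17).

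**Figure D3:**
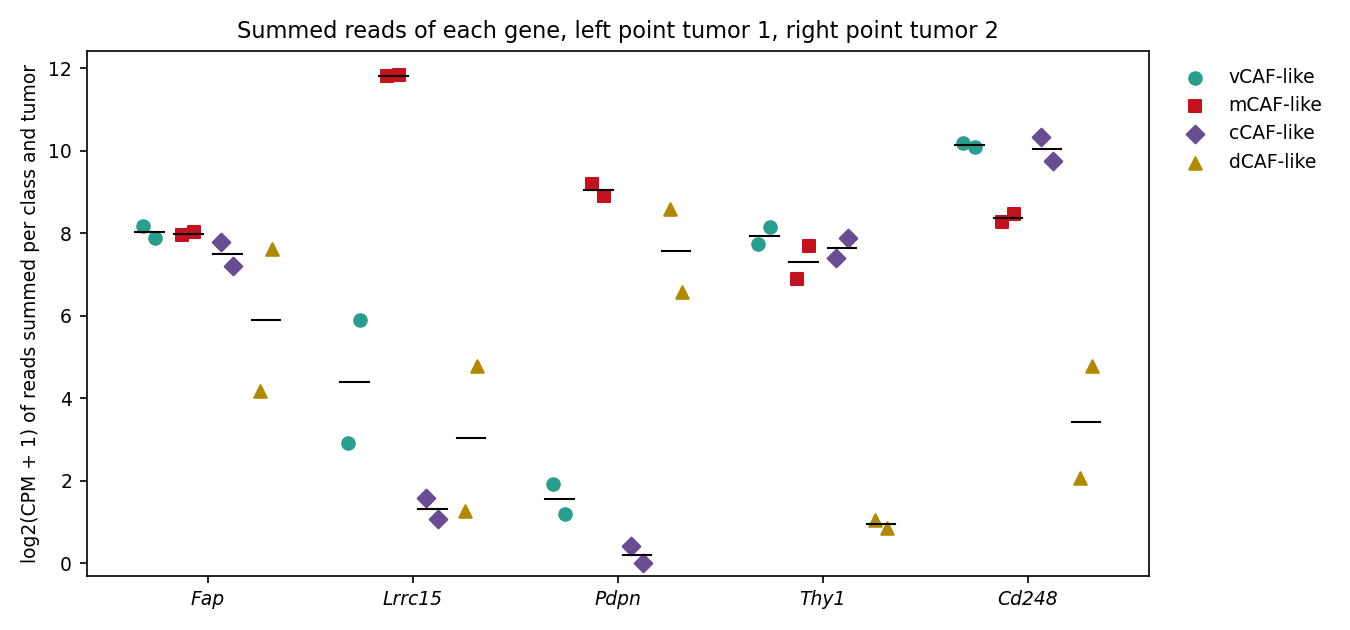
log2(CPM + 1) of reads summed over the wells of each class and tumor (y axis) for each gene (x axis), with 1 point per tumor and the mean as a bar. The mCAF-like squares lie far above the vCAF-like circles for Lrrc15 and Pdpn and below them for Cd248, and the Fap symbols of both classes overlap.

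dCAF-like wells were compared with both large classes in the same fit. Against vCAF-like wells 3.4% of all genes were higher and 5.54% lower, and of the members 1 was higher and 2 were lower. Thy1 stood at 1.07 and 0.800 CPM in the dCAF-like wells of tumors 1 and 2, from 3 and 5 reads, far under every library of the other classes. Its log2 fold change was -8.10 against vCAF-like (SE 0.508, adjusted p = 0.00044) and -7.50 against mCAF-like wells (SE 0.50, adjusted p = 0.0010). Cd248 stood at 3.20 and 26.4 CPM, also under every other library, with log2 fold changes of -6.19 (adjusted p = 0.0083) and -4.42 (adjusted p = 0.024).

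Pdpn was the member that was higher. It stood at 385 and 94.3 CPM in dCAF-like wells, under the mCAF-like values but far above the vCAF-like ones, with log2 fold changes of 6.85 against vCAF-like (SE 0.884, adjusted p = 0.0058) and -1.16 against mCAF-like wells (SE 0.691, adjusted p = 0.39). Against mCAF-like wells 2.18% of all genes were higher and 4.94% lower, and of the members 0 were higher (also at an unadjusted p under 0.05, and by DESeq2) and 3, Thy1, Cd248 and Lrrc15, were lower. Lrrc15 stood at 1.42 and 26.4 CPM, the latter mostly from 3 wells with 26 to 83 reads that held 152 of the 165 reads, and its log2 fold change was -7.95 against mCAF-like wells (SE 1.56, adjusted p = 0.031) and -1.15 against vCAF-like wells (adjusted p = 0.65).

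Fap in dCAF-like wells differed between the tumors, at 17.1 and 197 CPM, from 48 and 1233 reads. Its log2 fold change of -1.29 against vCAF-like wells missed the threshold (adjusted p = 0.46), and was -4.10 in tumor 1 alone and -0.26 in tumor 2 alone. Against mCAF-like wells it was -1.23 and also missed the threshold (adjusted p = 0.48 by edgeR). The comparisons of dCAF-like wells with vCAF-like and with mCAF-like wells share the dCAF-like libraries. Epithelial genes were read in more dCAF-like wells than in the other classes, in 29 of 39 against 82 of 462 vCAF-like and 47 of 135 mCAF-like wells, with a median summed level of 60.2 CPM against 0 in both. None of the 6 epithelial genes passed edgeR's test against either class, but 5 were higher than in vCAF-like wells and 3 higher than in mCAF-like wells at an unadjusted p under 0.05, and DESeq2 called the same numbers, 5 and 3. Among the 10 dCAF-like wells with no epithelial read, 6 reached 5 reads of Pdpn, 6 of Fap, 4 of Cd248 and 0 of Thy1, and among the 29 with one, 13, 4, 2 and 0. Of the 10 wells, 9 were from tumor 2 and 1 from tumor 1, against 20 and 9 of the 29. Within tumor 2 alone, 5 of the 9 wells with no epithelial read and 8 of the 20 with one reached 5 reads of Pdpn, 6 and 3 of Fap, 4 and 1 of Cd248, and 0 and 0 of Thy1. The part of the epithelial reads in these values was not tested.

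cCAF-like wells were compared with vCAF-like wells, where 0.0854% of all genes were higher and 0.0171% lower. None of the members passed the test by edgeR (0 of 5). At an unadjusted p under 0.05, 2 were lower, Lrrc15 and Pdpn, and DESeq2 called 1, Lrrc15 (adjusted p = 0.0050). Cd248 stood at 1303 and 865 CPM, Fap at 219 and 148 and Thy1 at 169 and 238, of which only the Thy1 value of tumor 2 lay within the vCAF-like range. Both Fap values and the other Thy1 value lay below it, and Cd248 lay above it in tumor 1 and below it in tumor 2. Lrrc15 was at 12 and 6 reads in all cCAF-like wells and Pdpn at 2 and 0.

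Co-detection asks which of the genes were found in the same well. At 5 reads, all 5 genes were found together in 81 of 135 mCAF-like wells (63.0% in tumor 1 and 56.5% in tumor 2) and in 0 of 462 vCAF-like wells. A further 24 mCAF-like wells carried all but Fap. After thinning, which lowers the counts of deep wells, 35 of 134 mCAF-like wells still carried all 5. The mean number of genes per well was 4.52 and 4.37 in mCAF-like, 2.57 and 2.55 in vCAF-like, 2.81 and 2.43 in cCAF-like and 0.800 and 1.03 in dCAF-like wells of tumors 1 and 2.

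vCAF-like wells had 2 main combinations. Fap, Thy1 and Cd248 with neither Lrrc15 nor Pdpn were found in 250 wells (54.1%), and Thy1 and Cd248 with none of the others in 149 (32.3%). The cCAF-like wells had the same leading pair of combinations, in 29 and 9 of 42. Among dCAF-like wells, Pdpn alone was found in 15 of 39 and none of the genes in 13.

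**Figure D4:**
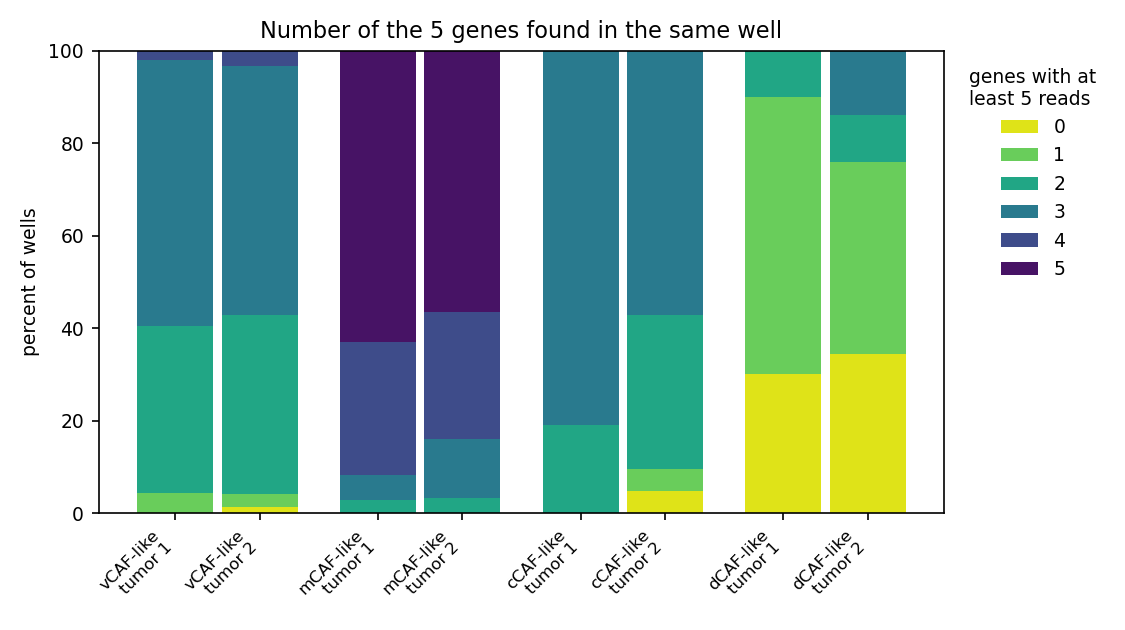
Percent of wells (y axis) of each class and tumor (x axis) by the number of the 5 genes with at least 5 reads in the same well (colours). The mCAF-like bars are mostly 5 genes (63.0% and 56.5%), the vCAF-like and cCAF-like bars 2 or 3, and the dCAF-like bars 0 or 1.

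Lrrc15 and Pdpn were the pair most often found together beyond the product of their own shares. Over all wells both reached 5 reads in 69 of 373 wells of tumor 1 and 57 of 354 of tumor 2 (18.5% and 16.1%), where the product of the shares is 4.72% and 4.85%. Of the wells with Lrrc15, 77.8% also had Pdpn, and of those with Pdpn, 80.8% had Lrrc15. Within mCAF-like wells, both were found in 91.1% of wells against a product of 89.9%, a smaller excess than over all wells. Across mCAF-like wells the log2(RPKM + 1) levels of the pair gave Pearson's r of 0.31 (73 wells of tumor 1) and 0.37 (62 wells of tumor 2). These wells share a plate and differ in depth, so the values are descriptive.

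Thy1 and Cd248 were found together in 80.7% of all wells against a product of 74.7%. Within vCAF-like wells it was 90.3% against 89.4%, and r across those wells was 0.23 in both tumors. Across mCAF-like wells r of this pair was 0.15 in tumor 1 and -0.16 in tumor 2. Fap was found with Cd248 in 60.2% of vCAF-like wells (product 59.6%) and with Thy1 in 58.0% (product 57.5%). Fap and Lrrc15 in mCAF-like wells had an r of -0.28 and -0.12, and Fap and Cd248 an r of 0.21 and 0.24.

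**Figure D5:**
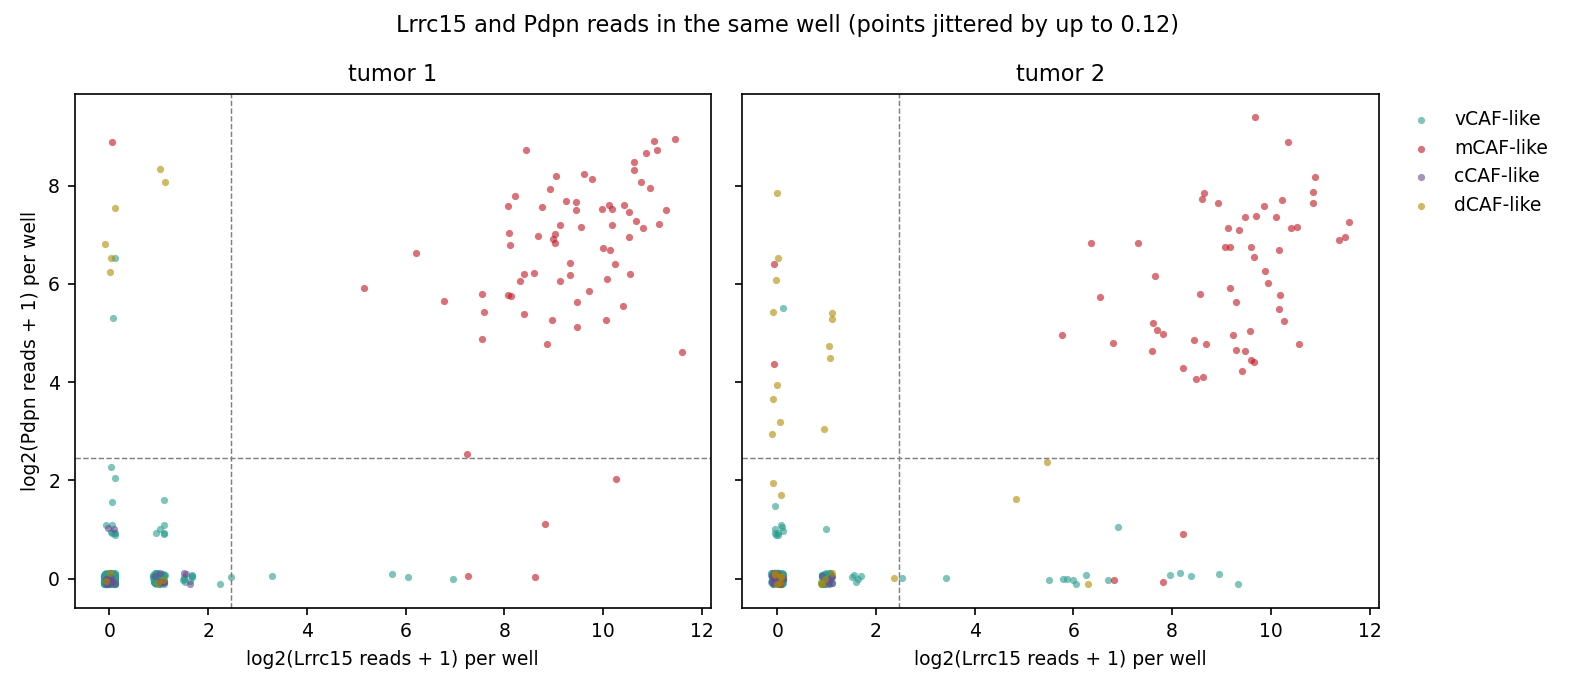
Reads of Lrrc15 (x axis) and Pdpn (y axis) as log2(reads + 1) in each well of tumor 1 (left) and tumor 2 (right), coloured by class, with dashed lines between 4 and 5 reads. The upper right field holds 67 and 56 mCAF-like wells and no well of another named class. Of the dCAF-like wells, 6 and 13 lie above the Pdpn line only, and 0 and 3 beyond the Lrrc15 line only.

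Seen from the marker, a cut at 5 reads of both Lrrc15 and Pdpn selected 126 wells, of which 123 (97.6%) were mCAF-like, 3 had no class name and 0 were vCAF-like. Lrrc15 alone selected 162 wells, of which 130 (80.2%) were mCAF-like and 20 (12.3%) vCAF-like, and the mCAF-like part was 86.6% in tumor 1 and 73.8% in tumor 2. Pdpn alone selected 156 wells, of which 126 (80.8%) were mCAF-like and 19 (12.2%) dCAF-like. With Thy1 added, 19 of the 30 wells with Pdpn but without Thy1 were dCAF-like and 11 (36.7%) mCAF-like. Of the 126 wells with both, 0 were dCAF-like and 115 mCAF-like. Fap selected 441 wells, of which 286 (64.9%) were vCAF-like and 99 (22.4%) mCAF-like. Over all 727 wells these classes held 63.5% and 18.6%. The wells with Thy1 were 69.1% vCAF-like and 19.97% mCAF-like (621 wells), and those with Cd248 70.0% and 19.2% (636 wells).

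Genes whose levels followed the members most closely across wells were sought among 10815 genes, by the mean over the tumors of Pearson's r on log2(RPKM + 1). For Lrrc15 these were Svep1 (r 0.89 in tumor 1 and 0.80 in tumor 2), Pdgfra (0.82 and 0.82), Cpxm1 (0.82 and 0.80), Crabp1 (0.86 and 0.75) and Mfap5 (0.81 and 0.78). Pdpn shared 3 of these, Cpxm1 (0.85 and 0.80), Pdgfra (0.85 and 0.80) and Svep1 (0.85 and 0.75), followed by the fibulins Fbln2 (0.84 and 0.73) and Fbln1 (0.79 and 0.77). Cd248 came with Col5a3 (0.63 and 0.69), the receptor Pdgfrb (0.64 and 0.66), Cygb (0.57 and 0.64), Col6a3 (0.51 and 0.63) and Arhgdib (0.56 and 0.58). Thy1 came with Col6a3 (0.50 and 0.66), the joint entry of C1qtnf5 and Mfrp (0.45 and 0.65), Col5a3 (0.47 and 0.58), Cd248 itself (0.46 and 0.55) and Pdgfrb (0.44 and 0.52).

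Fap had no close companion. Its 5 nearest genes were collagens, Col6a2 (0.39 and 0.37), Col6a1 (0.30 and 0.35), Col5a2 (0.36 and 0.29), Col6a3 (0.31 and 0.34) and Col3a1 (0.35 and 0.30). All of the values above are over 373 and 354 wells that fall into classes, and are descriptions of the wells. Pdgfra, Mfap5, Fbln1 and Fbln2 are also on the marker list of the mCAF-like class. Within mCAF-like wells the nearest gene was Col12a1 for Lrrc15 (0.48 and 0.67) and Fbln2 for Pdpn (0.48 and 0.42). Within vCAF-like wells it was Col4a1 for Cd248 (0.48 and 0.39), Lars2 for Thy1 (0.40 and 0.46) and Col6a2 for Fap (0.37 and 0.22).

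Partners and relatives of the members were measured in the same fit of vCAF-like against mCAF-like wells, in which 2.59% of all genes were higher and 2.98% lower, with a median log2 fold change of 0.02. Of the binding partners of Pdpn, 6 of 7 could be tested, 0 were higher (1 at an unadjusted p under 0.05, and 1 by DESeq2) and 1 was lower (median 0.14). Ezr, the ezrin that ties Pdpn to actin, was lower (log2 fold change -3.64, adjusted p = 0.013), while its relatives Msn (0.45) and Rdx (-0.16) and the hyaluronan receptor Cd44 (1.29) did not pass. Against vCAF-like wells, dCAF-like wells were also higher in Ezr (5.61, adjusted p = 0.0024) and lower in Msn (-0.92, adjusted p = 0.040). Clec1b, the platelet receptor, was too low to test.

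Of the partners of Fap, 3 of 3 were tested and 1 was lower (median -2.54). This was Itga3, an integrin chain (-2.97, adjusted p = 0.037). The protease receptor Plaur (-2.54, adjusted p = 0.098) and Itgb1 (0.67) did not pass. Of the family of Fap 5 of 8 genes were tested and 0 passed by edgeR, 0 at an unadjusted p under 0.05 and 0 by DESeq2 (median 0.08), with Prep at -0.40, Prepl at 0.20, Dpp7 at -1.16, Dpp8 at 0.32 and Dpp9 at 0.08. Dpp4, its nearest relative, was too low to test, as were Dpp6 and Dpp10.

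Of the partners of Thy1, 4 of 6 were tested and 1 was lower (median -0.39). This was Itgb5, an integrin chain (-1.02, adjusted p = 0.033), and Itgav (-0.52), Itgb3 (-0.25) and the syndecan Sdc4 (-0.26) did not pass. Of the partners of Cd248, 3 of 4 were tested and 1 was lower (median -1.69). Col1a1, a chain of fibrillar collagen, was lower in vCAF-like wells (-3.00, adjusted p = 0.0097), and Fn1 (-1.69) and Lgals3bp (-0.43) did not pass. Of the lectin family of Cd248, Cd93 (5.19, SE 2.15) and Thbd (-0.01) were tested and 0 of 2 passed (median 2.59), with Cd93 under an unadjusted p of 0.05 and called by DESeq2 (1 gene).

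Other genes used to mark CAFs were split between the classes. Of 22 tested, 3 were higher and 5 lower in vCAF-like than in mCAF-like wells (median -0.16), beside 2.59% and 2.98% of all genes. Cav1, which encodes caveolin, was higher (5.95, adjusted p = 0.015), as were the adhesion molecule Mcam (3.75, adjusted p = 0.0014) and smooth muscle actin Acta2 (1.62, adjusted p = 0.025). The peptidase Mme (-10.03), the receptor Pdgfra (-6.95, itself an mCAF-like marker), Ly6a (-5.74) and the cadherin Cdh11 (-4.56) were the lower genes of largest change, with adjusted p from 0.00093 to 0.026. Vim and S100a4, with log2 fold changes of -0.03 and 0.04, did not pass.

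Of 17 myofibroblast genes 2 were higher and 3 lower (median -0.73). The contractile genes Myl9 (2.44, adjusted p = 0.0076) and Acta2 were higher, and Col11a1 (-6.15, adjusted p = 0.039), Col12a1 (-3.77, adjusted p = 0.017) and the matrix protein Postn (-1.66, adjusted p = 0.023) were lower. Of 10 inflammatory fibroblast genes 8 were tested and 1 was lower, Ly6c1 (-7.37, adjusted p = 0.045; median -1.40). Pericyte genes moved with the vascular class: 3 of 4 were higher (median 6.64), Rgs5 and Kcnj8, which served to name the class, and Mcam, and their summed level had a median of 16927 CPM in vCAF-like against 118 in mCAF-like wells. Their part in the values of Cd248, known from pericytes, was not tested. None of the 6 epithelial and 2 immune genes tested passed by edgeR, at an unadjusted p under 0.05 (0 genes) or by DESeq2 (0 genes), and no endothelial or lymphatic gene was high enough to test.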

How the data were processed

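Single cells were sequenced by Smart-seq2 from 2 tumors, 384 wells each, and each table column was matched to its well by title (0 columns unused). The deposited counts are reads per RefSeq gene, made by the authors with STAR on mm10, without molecular identifiers or strand. From these counts the authors derived the deposited RPKM, which scales reads by gene length and by the reads of the well. Classes followed the study's route: the 557 genes most variable over the 53 ERCC spike-ins with a mean of at least 1 read (scran 1.30.0), without the 5 members, log2(RPKM + 1), 50 runs of Rtsne 0.17 and DBSCAN (scikit-learn 1.9.0). The DBSCAN distance departs from the study's 3.1, which gave 2 clusters here and only the mCAF-like name (143 wells). It was set to 2.0, the largest at which all 4 names occurred, and the classes depend on it. A cluster under 10 wells got no name. Doublets were not sought, as cells were sorted into single wells. Reads summed per tumor and class (8 libraries) were tested with edgeR 4.0.16 (TMM, quasi-likelihood, mean RPKM of 1 or more, Benjamini-Hochberg adjustment, threshold 0.05). The SE of a log2 fold change is its absolute value divided by the square root of the F statistic of this test. It is thus derived from the test and is not the spread between the tumors. Simulated data of vCAF-like against mCAF-like wells (11710 genes) gave calls for 15 of 50 genes changed by a log2 of 1. The calls were 50 of 50 at a log2 of 2, and 5 unchanged genes were called. Whether measured changes of that size are called as often was not tested. For dCAF-like minus vCAF-like wells, 0 of 6 epithelial genes passed at a median log2 fold change of 5.14. In the same comparison 4 of 4 pericyte genes passed, at a median of -7.69. The libraries are paired, since every class of 1 tumor is from 1 animal. Their deviations correlated by 0.174 for vCAF-like and mCAF-like wells and by 0.0368 to 0.0792 for the other pairs. Alternatives were the tumor as a replicate block, DESeq2 1.42.0, other library sizes, filters, thinning, classes by Leiden (scanpy 1.11.5) or by marker means, and each tumor alone. SDs are over 2 tumors, which limits their precision. The members and lists were chosen with earlier results of these data known. Named genes are the members, the 5 genes nearest to each over all wells, the nearest within a class, and partners and relatives. From the other lists, up to 5 called genes per direction were named by size of change, and Vim and S100a4 were named without a call.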

Additional observations from a re-analysis of the deposited data

How the results depend on the processing

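With 2 tumors, the precision of each SD is low, tumor and plate cannot be separated, and low reads per well limit the shares. Lrrc15 and Pdpn kept their direction between vCAF-like and mCAF-like wells in all settings run, with log2 fold changes from -9.10 to -5.96 and from -10.64 (Leiden classes) to -5.15 (DBSCAN distance of 2.5). At an adjusted p of 0.001 neither passed (log2 fold changes -6.80 and -8.01), and Lrrc15 missed the 0.05 threshold with ERCC totals as library size (-6.50). The study used 0.001 with a different test, on single cells and against all other populations pooled, so its criterion was not applied here. Cd248 passed with the 4 libraries of the pair (1.78), in thinned wells (1.77), with classes by marker means (1.75) and at a DBSCAN distance of 2.5 (1.60), and Thy1 passed with marker means (0.86). Fap turned sign in thinned wells (-0.17), at the distance of 2.5 (-0.085) and without tumor 1 (-0.14). With the tumor as a replicate block no member's call changed in any comparison, and vCAF-like minus mCAF-like was -7.58 for Lrrc15 (adjusted p = 0.037 by edgeR), -8.19 for Pdpn (adjusted p = 0.0036 by edgeR), 1.79 for Cd248, 0.64 for Thy1 and 0.08 for Fap. For cCAF-like minus vCAF-like wells Lrrc15 passed by DESeq2 (-4.42). The causes were not tested, other than that the stricter threshold calls fewer genes by construction.

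Leaving out each tumor gave log2 fold changes with no test. For vCAF-like minus mCAF-like wells they were -0.14 to 0.24 for Fap, -9.10 to -5.96 for Lrrc15, -8.51 to -7.68 for Pdpn, 0.44 to 0.86 for Thy1 and 1.63 to 1.92 for Cd248. For cCAF-like minus vCAF-like wells they were -0.68 to -0.41 for Fap, -5.70 to -1.72 for Lrrc15, -5.53 to -3.02 for Pdpn, -0.36 to -0.25 for Thy1 and -0.34 to 0.15 for Cd248, the last reversed without tumor 2. For dCAF-like minus mCAF-like wells they were -3.85 to -0.41 for Fap, -11.28 to -7.11 for Lrrc15, -2.35 to -0.61 for Pdpn, -7.97 to -6.77 for Thy1 and -6.59 to -3.74 for Cd248. For dCAF-like minus vCAF-like wells they were -4.10 to -0.26 for Fap, -2.18 to -1.15 for Lrrc15, 6.16 to 7.07 for Pdpn, -8.41 to -7.63 for Thy1 and -8.51 to -5.37 for Cd248.

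The 303 genes called higher and 349 lower in vCAF-like than in mCAF-like wells became 637 and 895 by DESeq2, 711 and 1035 with the 4 libraries, 16 and 10 at the adjusted p of 0.001, 419 and 559 in thinned wells, 405 and 574 with Leiden classes, 761 and 1161 with marker means and 780 and 1032 at the distance of 2.5. ERCC totals moved the median gene from 0.02 to 0.31 and the calls to 372 and 259, so changes on that scale read relative to 0.31. For cCAF-like minus vCAF-like wells the 10 and 2 calls became 1 and 0 with the replicate block and 475 and 471 by DESeq2. For dCAF-like wells DESeq2 called 1024 higher and 1260 lower than in mCAF-like wells (255 and 578 by edgeR), and 1245 and 1235 against vCAF-like wells (398 and 649 by edgeR).

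Shares of wells with any read moved when at least 5 reads, an RPKM of at least 10, or any read in wells thinned to 50000 reads was asked, given here in that order. In vCAF-like wells Fap went from 68.9% to 61.7%, 61.7% and 64.6%, Lrrc15 from 30.7% to 4.50%, 4.07% and 12.5%, Pdpn from 6.43% to 0.637%, 0.840% and 2.43%, Thy1 from 96.5% to 92.9%, 93.3% and 94.5%, and Cd248 from 98.1% to 96.3%, 96.5% and 97.5%, with 98.6% for Leiden classes. In mCAF-like wells Fap went from 80.5% to 73.2%, 71.7% and 74.4%, Pdpn from 95.5% to 93.3%, 93.3% and 94.8%, with 96.1% for Leiden classes, Thy1 from 96.9% to 91.6%, 91.1% and 92.5%, and Cd248 from 95.4% to 90.2%, 90.2% and 92.4%. Wells with 3 or more of the genes went from 77.6% to 58.4%, 58.4% and 66.0% in vCAF-like and from 98.5% to 97.0%, 97.0% and 97.7% in mCAF-like wells, the latter at 98.3% without wells with a read of Epcam, Pecam1 or Ptprc. Both Lrrc15 and Pdpn went from 20.7% to 17.3%, 17.6% and 18.8% of all wells.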

Other observations

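A cluster of 8 wells, 4 from each tumor, stayed under the 10 wells needed for a name and enters no comparison between the classes named at the DBSCAN distance of 2.0, although classes by marker means took in all 727 wells, these among them. Its leading genes were Sfrp4, C3, Efemp1, Clec3b, Dpt and Cd34, and its median depth was 216723.5 reads. Pdpn was found in every well, with 20 reads at the lowest, 108.5 at the median and 387 at the highest. Thy1 (median 30 reads) and Cd248 (median 246 reads) also reached 5 reads in 8 of 8 wells, and Fap (median 48 reads) in 6 of 8. Lrrc15 reached 5 reads in 3 of 8, with a median of 1.5 reads and a highest value of 225. These wells thus carried Pdpn with less Lrrc15 than the mCAF-like wells, whose median was 648 and 618 reads in the 2 tumors. The cluster was chosen after its values were seen, and the difference was not tested.

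The other wells without a name lay in clusters of 18, 17 and 6 wells with median depths of 41258.5, 32498 and 16210 reads. Of the 17 wells, 6 reached 5 reads of Lrrc15 and 0 reached 5 of Pdpn.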
